A study of Mus musculus with 60 samples.

Results

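The immunoglobulin heavy and light chain genes were followed on 60 Affymetrix Mouse430_2 arrays of mouse lymphomas and normal lymphoid tissue. Members were all probe sets whose only gene symbol begins with the letters of a heavy chain constant or V gene, or of a kappa or lambda chain gene, with no filter on level. Of 45101 probe sets on the array, 42 met this rule. Of these 42, 4 belong to Ighmbp2, which encodes a helicase and no immunoglobulin chain, and they are described apart at the end. The other 38 probe sets stand for 18 genes. The heavy chain constant genes had 18 probe sets (Ighm 11, Ighg3 4, Igha 3). The V genes had 20, made up of 1 for Ighv14-2, 16 for 13 kappa V genes and 3 for the lambda gene Iglv1. A further 13 probe sets that name an immunoglobulin gene together with another gene were not used, and no member names a kappa or lambda constant gene, the delta or epsilon constant gene, or a J segment alone.

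Em-myc transgenic mice gave 50 lymphomas, 25 with an age of onset of 32 to 76 days, here called early, and 25 with one of 253 to 649 days, here called late. Wildtype mice gave 10 normal tissues, namely 6 young lymph nodes (aged 38 to 73 days), 3 old lymph nodes (387 to 438 days) and 1 old spleen (304 days). In Em-myc mice a Myc transgene is driven by the immunoglobulin heavy chain enhancer, so that it is active in B lineage cells. Nothing in the labels ties arrays to a common mouse or litter, and a p-value here reflects only how far these samples varied, which may be technical. Each lymphoma or tissue is named here by the number in its label.

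By DNA rearrangement each B cell joins 1 heavy chain V gene to a D and a J segment. It likewise joins 1 kappa or lambda V gene to a J segment, and its descendants inherit that choice. Early B cells make the mu heavy chain (Ighm), and class switching replaces mu by a gamma chain such as Ighg3 or by alpha (Igha). Plasma cells secrete the chains and hold far more of their messenger RNA than resting B cells, so that a few plasma cells can supply much of the signal of a tissue. A polyclonal node therefore shows many V genes and several isotypes, and a clone can show few.

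All levels are log2(intensity + 15.7), and all changes are differences on that scale, which understates the change of dim probe sets. A level was compared only between arrays, never between probe sets. Tests are limma's moderated test, two-sided, with Benjamini-Hochberg adjustment over 45037 probe sets and a threshold of 0.05. Myc checked the labels of tumour against normal tissue: its level lay between 9.81 and 10.66 in normal tissue, between 13.12 and 14.18 in early lymphomas and between 12.28 and 14.27 in late lymphomas. Neither lymphoma group overlapped with normal tissue, and the early range lay within the late one. The 10 normal arrays serve as the control of both tumour groups, so the comparisons with normal tissue share them.

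Early lymphomas had less of nearly every immunoglobulin transcript measured than normal tissue, whereas the signal of 1 pair of Ighm probe sets stayed near the normal level. Of the 38 probe sets, 30 were lower in early lymphomas and 0 were higher, by limma, whereas 49.5% of all probe sets were called, 31.4% lower and 18.1% higher. The 30 were all 3 Igha, all 4 Ighg3, 7 of 11 Ighm, Ighv14-2, 13 of 16 kappa and 2 of 3 Iglv1 probe sets. The median change over the 38 was -2.89, beside -0.10 over all probe sets. The heat map of all members shows this loss as a blue field over both tumour groups, broken by single tumours.

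**Figure D1:**
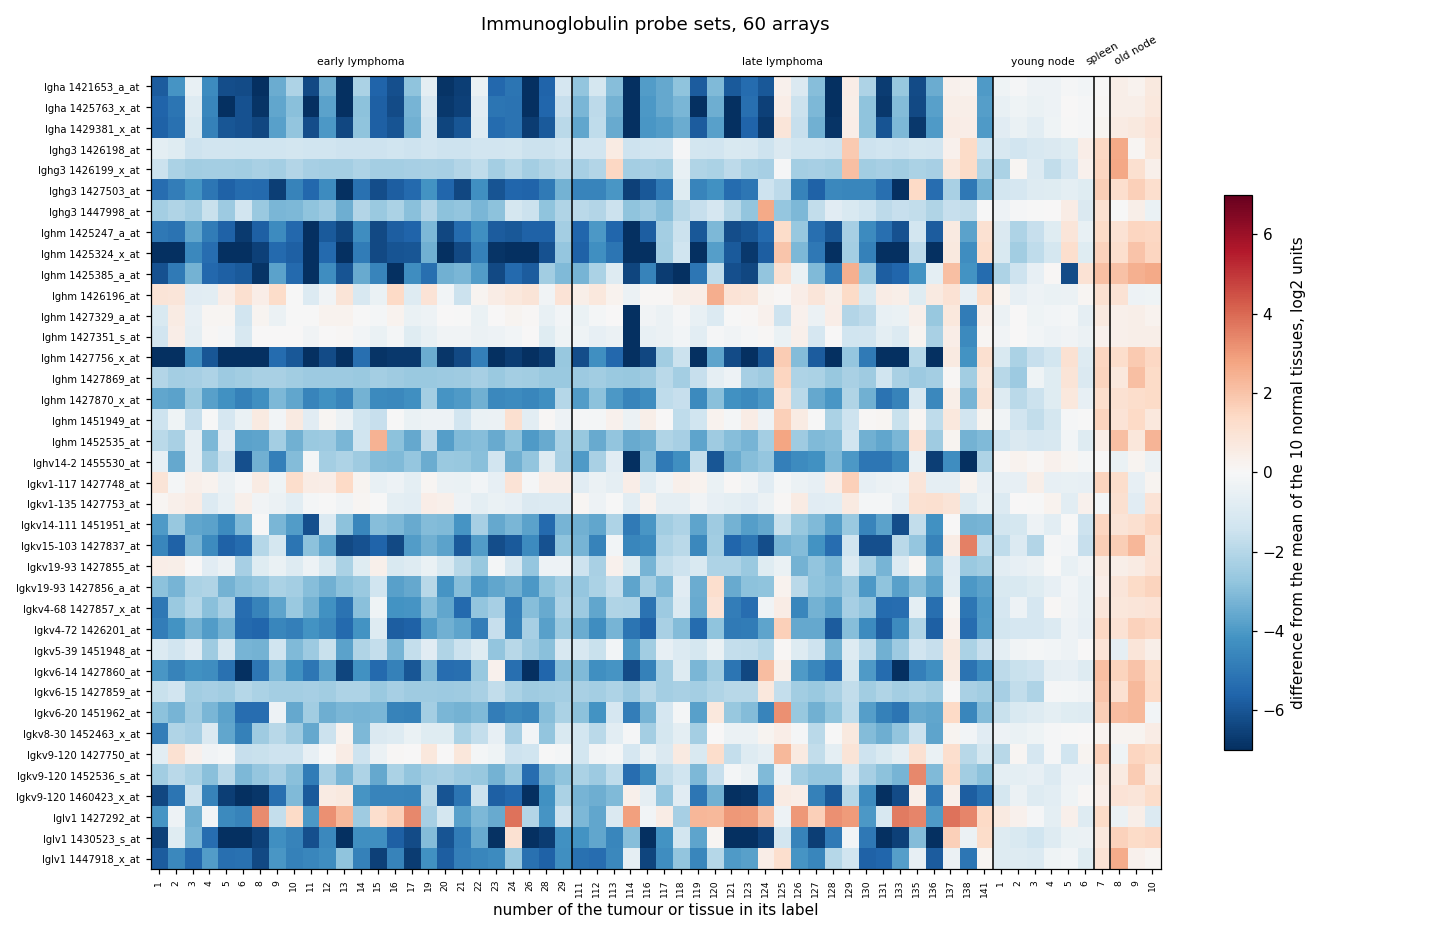
Heat map of the 38 immunoglobulin probe sets (rows) on the 60 arrays (columns, by number in the label), coloured by the difference from the mean of the 10 normal tissues in log2 units. Blue fills most rows in both lymphoma groups, the rows Ighm 1427329_a_at and 1427351_s_at stay pale except in late lymphomas 114, 136 and 138, and red is rare outside the row Iglv1 1427292_at, which was above all normal tissues in 22 lymphomas.

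The alpha heavy chain, the constant region of IgA, was among the transcripts lost in the early tumours. On Igha 1421653_a_at the lowest, median and highest levels were 13.97, 14.22 and 14.97 in the 10 normal tissues and 5.80, 8.82 and 13.84 in the 25 early lymphomas. Every early lymphoma lay below every normal tissue. The change was -4.63 ± 0.72 (SE; limma adjusted p = 6.4e-07), a 24.7-fold difference. The other Igha probe sets, 1425763_x_at and 1429381_x_at, fell by 4.84 and by 4.63.

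In late lymphomas the same probe set had a lowest, median and highest level of 5.38, 11.23 and 14.77, and the change from normal tissue was -3.50 ± 0.77 (SE; limma adjusted p = 0.00031). The late tumours overlapped with normal tissue through 4 of 25: late lymphomas 125, 129, 137 and 138 held 14.64, 14.77, 14.61 and 14.56. All 3 Igha probe sets placed these same 4 lymphomas, and no others, within the normal range. The remaining 21 late lymphomas were below every normal tissue.

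Those 4 lymphomas were also rich in plasma cell transcripts. The mean level of 13 plasma cell genes was 12.94, 13.06, 13.24 and 13.51 in late lymphomas 125, 129, 137 and 138, and 13.48 in late lymphoma 120. It was at most 11.18 in the other late lymphomas and 9.28 to 10.13 in the early ones. Jchain, the chain that joins IgA and IgM units into polymers, had levels of 14.73 to 14.84 in these 5 tumours. Late lymphoma 120 did not share the alpha signal, since it was not in the normal range of any Igha probe set. The Gapdh 3' to 5' ratio of the 5, a sign of RNA quality, lay between -0.61 and -0.48 (log2) in a late range of -0.61 to -0.30, and its part in their levels was not tested. In bulk tissue, fewer cells of a type and less RNA per cell cannot be told apart.

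The gamma chain probe sets were low as well. On Ighg3 1427503_at, normal tissues ranged from 11.56 to 14.56 with a median of 12.07, and early lymphomas from 5.64 to 9.55 with a median of 7.39. All 25 early lymphomas were below all normal tissues, and the change was -5.31 ± 0.34 (SE; limma adjusted p = 1.5e-16), or 39.8-fold. Late lymphomas ranged from 5.27 to 14.24 with a median of 8.21 and changed by -4.23 ± 0.62 (SE; limma adjusted p = 7e-07). Only late lymphomas 118 (11.97) and 135 (14.24) reached the normal range on this probe set. Neither of them was among the 5 lymphomas rich in plasma cell transcripts: their means over the plasma cell genes were 10.34 and 10.67.

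The remaining Ighg3 probe sets gave another picture of single tumours, but all of them were dim. They lay above the array median on 1 (1426198_at), 5 (1426199_x_at) and 6 (1447998_at) of the 60 arrays. In early lymphomas 1426198_at and 1426199_x_at had medians of only 4.13 and 4.22. On 1447998_at the highest lymphoma was late lymphoma 124 at 10.39, above the highest normal tissue (8.78), and the next was late lymphoma 141 at 7.68. On 1426198_at and 1426199_x_at, which were made from 1 sequence record, the highest was late lymphoma 129, at 7.38 and 8.67. Over the 60 arrays this last pair varied together (Pearson's r 0.93), and the other 5 pairings of Ighg3 probe sets had r between 0.39 and 0.69. These correlations are a description over arrays that share groups and depth of signal.

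**Figure D2:**
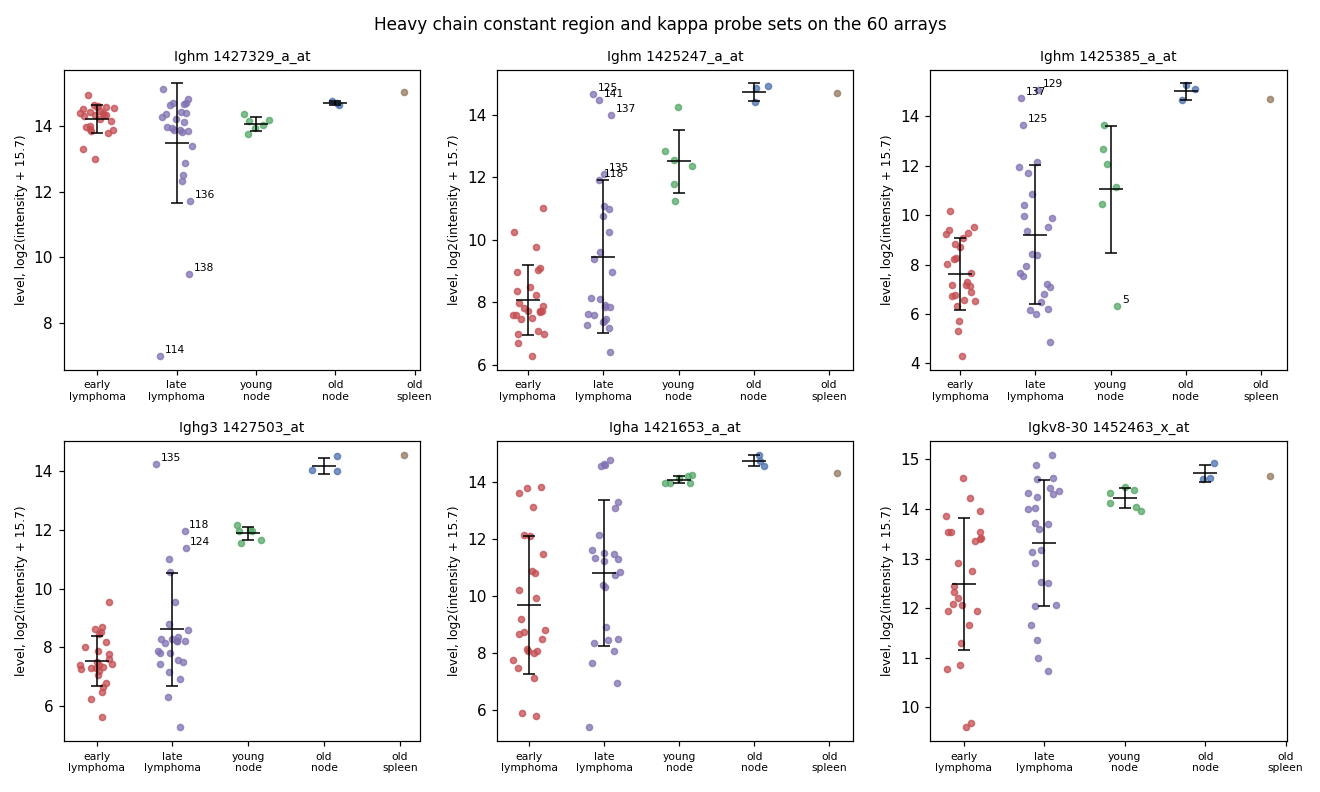
Levels of 5 constant region probe sets and the kappa probe set Igkv8-30 1452463_x_at on the 60 arrays, on the log2(intensity + 15.7) scale; points are arrays, bars are the mean ± SD of a group, and numbers are lymphoma or node labels. Ighm 1427329_a_at stays high except in late lymphomas 114, 136 and 138, while Igha and Ighg3 fall in the tumours except in a few late ones. The other Ighm probe sets shown are lower on average in the tumours. On Ighm 1425385_a_at, however, 42 lymphomas (21 early and 21 late) lie within the wide range of normal tissue, 6.34 to 15.27.

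The 11 probe sets annotated Ighm did not read a common quantity. Of their 55 pairings, 8 had an r of at least 0.8 over the 60 arrays, and r ranged from -0.13 to 0.99. The pair 1427329_a_at and 1427351_s_at had r = 0.97 (Spearman's rho 0.88). A block of 4 (1425247_a_at, 1425324_x_at, 1427756_x_at and 1427870_x_at) had r between 0.97 and 0.99 within itself. Between the pair and the block, r was only 0.14 to 0.27. In Affymetrix names the ending _x_at marks probe sets with probes that may match other sequences, and 3 of the block carry it.

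The pair was high in normal tissue and in nearly all tumours. On Ighm 1427329_a_at the lowest, median and highest levels were 13.75, 14.28 and 15.04 in normal tissue, 13.00, 14.34 and 14.95 in early lymphomas and 6.98, 13.95 and 15.11 in late lymphomas. The 3 groups overlapped, and the long lower tail belonged to late tumours. The early change from normal was -0.14 ± 0.15 (SE; limma adjusted p = 0.49) and the late change was -0.88 ± 0.55 (SE; limma adjusted p = 0.23). For 1427351_s_at they were -0.30 ± 0.14 (SE; limma adjusted p = 0.078) and -0.88 ± 0.49 (SE; limma adjusted p = 0.17). Centring each array on its median turned the small early differences to 0.20 and 0.044, while quantile normalization gave -0.35 with a call for 1427351_s_at (limma adjusted p = 0.008), so no direction is given for the pair. Whether such bright probe sets were saturated is not given in the sources used here.

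The lowest of the tail were late lymphomas 114 (6.98 and 7.36 on the pair), 138 (9.47 and 9.91) and 136 (11.71 and 12.10). The same 3 had the lowest levels of Ighv14-2. They differed in their other B lineage transcripts. Late lymphoma 114 had Cd79a, a signalling chain of the B cell receptor, at 13.96, near the early median of 13.91, and Igkv8-30 at 14.32, within the normal range. Late lymphoma 138 had Cd79a at 7.52 and was 1 of the 4 with Igha in the normal range. Late lymphoma 136 had Cd79a at 12.25 and Igll1, a surrogate light chain of pre-B cells, at 13.23.

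Other tumours low in B lineage transcripts held more of the pair than these 3. Late lymphomas 117, 127, 130, 131 and 133 and early lymphoma 6 had Cd79a levels from 7.01 to 10.99, and 1427329_a_at stood at 13.95, 13.95, 12.50, 13.83, 13.88 and 13.00 in them. Of these, 117, 127, 131 and 133 had Siglech, a marker of plasmacytoid dendritic cells, at 11.59 to 12.45, and 130 had the T cell gene Cd3d at 13.31. Late lymphomas 120, 125 and 137, rich in plasma cell transcripts, also had Cd79a in that range (10.52, 9.12 and 10.46). On 1427329_a_at they held 13.40, 12.88 and 15.11. The setting that leaves out lymphomas low in B lineage genes does not leave out 120, 125 or 137. The part of other cells in the Ighm signal of these tumours was not tested.

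The block of 4 was low in nearly all tumours. On Ighm 1427756_x_at the lowest, median and highest levels were 10.79, 13.10 and 14.87 in normal tissue, 4.70, 6.29 and 10.35 in early lymphomas and 4.60, 7.51 and 14.81 in late lymphomas. No early lymphoma overlapped with normal tissue, and the change of -6.39 ± 0.51 (SE; limma adjusted p = 6.2e-14) was close to that of 1425324_x_at (-6.27 ± 0.54). Since 1427756_x_at lay above the array median on only 29 of 60 arrays, no fold is given for it. The late change was -4.60 ± 0.93 (SE; limma adjusted p = 9.9e-05). On 1425247_a_at and 1427756_x_at the same 5 late lymphomas (118, 125, 135, 137 and 141) were in the normal range. They include both lymphomas with Ighg3 1427503_at in the normal range.

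Among the other Ighm probe sets, 1427869_at varied most like the block, with r of 0.77 to 0.81, and it was made from the same sequence record as 1427870_x_at of the block. 1425385_a_at was highest in late lymphomas 129 (15.08) and 137 (14.73) and spanned 6.34 to 15.27 in normal tissue. 1452535_at was above the highest normal tissue (13.68) in late lymphoma 125 (14.07) and early lymphoma 15 (13.75), while the median of all 50 lymphomas was 8.39. 1427869_at, 1451949_at and 1426196_at were dim and lay above the array median on fewer than 10 arrays.

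Single arrays showed that these disagreements were large. Young node 5 had the highest level of the 6 young nodes on 1425247_a_at (14.23, the others 11.26 to 12.85) and the lowest on 1425385_a_at (6.34, the others 10.45 to 13.63). Late lymphoma 141 likewise had 14.47 on the former and 7.21 on the latter, against medians of 7.90 and 7.97 over the 50 lymphomas. Late lymphoma 118 had 11.90, 4.00 above the median of the former, and 4.87, the lowest late level of the latter. Late lymphoma 129 showed the reverse, with 11.07 and 15.08. A level of Ighm in these tissues thus depended on the probe set read.

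**Figure D3:**
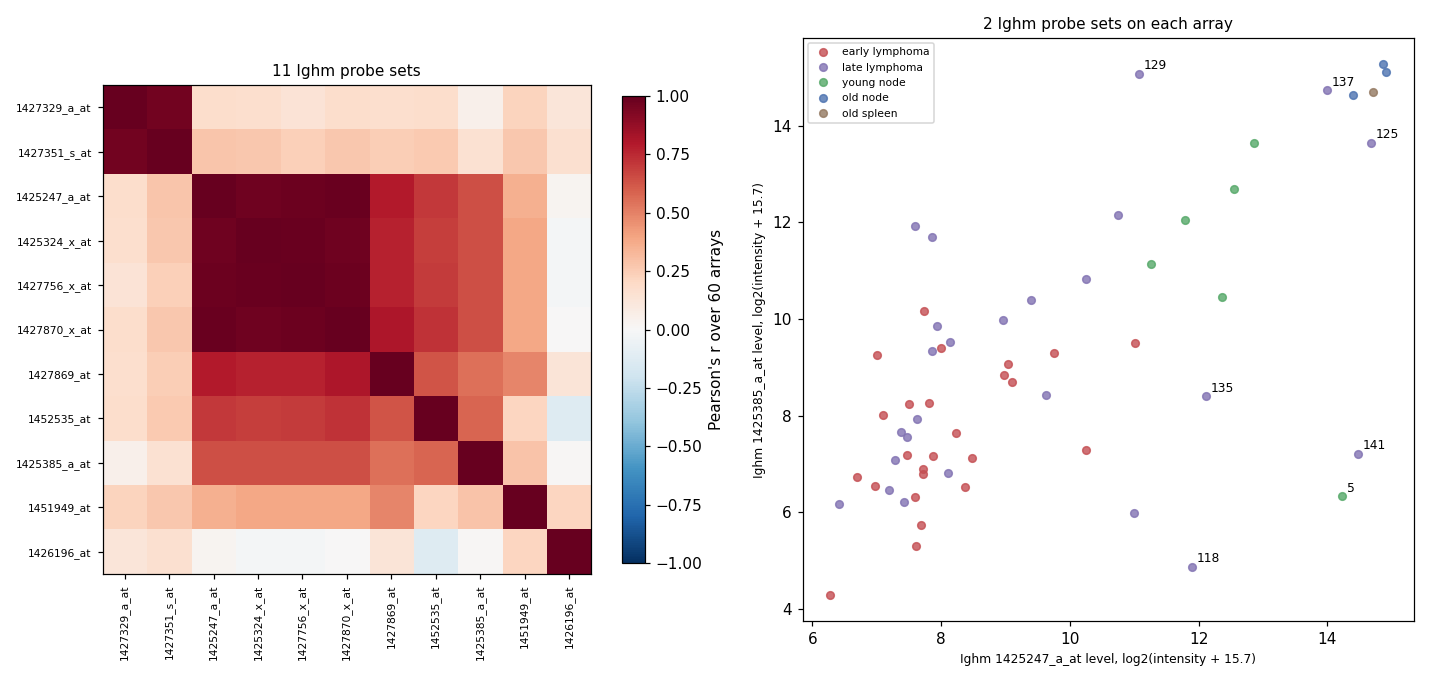
Left, Pearson's r over the 60 arrays between the 11 Ighm probe sets, from -1 (blue) to 1 (red). Right, levels of 1425247_a_at (x axis) and 1425385_a_at (y axis) on each array, log2(intensity + 15.7), with young node 5 and late lymphomas 118 and 141 far to the lower right and late lymphoma 129 at the top.

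Most kappa V genes were lower in the tumours. The kappa members, ordered along the locus from the end far from the J segments as in the RefSeq gene table (GRCm38.p6), run from Igkv1-135 to Igkv6-14. The 13 called in early lymphomas covered Igkv14-111, Igkv15-103, both Igkv19-93 probe sets, Igkv4-72, Igkv4-68, Igkv5-39, Igkv8-30, Igkv6-20, Igkv6-15, Igkv6-14 and 2 of 3 for Igkv9-120. The 3 not called, Igkv1-135, Igkv1-117 and Igkv9-120 1427750_at, lay above the array median on fewer than 10 arrays each. The largest early changes among them were -4.61 ± 0.55 (SE) for Igkv6-14, -4.58 ± 0.52 for Igkv15-103 and -4.39 ± 0.70 for Igkv9-120 1460423_x_at (limma adjusted p = 2.5e-09, 8.3e-10 and 1.1e-06).

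Igkv8-30 1452463_x_at changed less. Its lowest, median and highest levels were 13.96, 14.42 and 14.93 in normal tissue, 9.60, 12.44 and 14.63 in early lymphomas and 10.74, 13.69 and 15.10 in late lymphomas. Of the early lymphomas, 23 of 25 lay below all normal tissues, and of the late ones 14 of 25 did. The changes were -1.93 ± 0.40 (SE; limma adjusted p = 7.5e-05) and -1.09 ± 0.39 (SE; limma adjusted p = 0.023). Its symbol names a single V gene, but the ending _x_at allows for probes that match related ones.

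The lambda gene Iglv1 was lower on 2 of 3 probe sets. On 1430523_s_at, normal tissues ranged from 11.79 to 14.80 with a median of 12.76, early lymphomas from 4.84 to 14.26 with a median of 7.86 and late lymphomas from 5.04 to 14.88 with a median of 9.02. All but 2 early lymphomas (2 and 24) and 7 late ones lay below normal tissue. The changes were -5.11 ± 0.67 (SE; limma adjusted p = 2.4e-08) and -3.99 ± 0.93 (SE; limma adjusted p = 0.00059).

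Iglv1 1427292_at gave another order. It ranged from 7.79 to 10.09 in normal tissue, from 4.10 to 12.55 in early lymphomas and from 4.72 to 12.55 in late lymphomas, with medians of 8.87, 7.08 and 10.74. It was above all normal tissues in 22 of 50 lymphomas and below all of them in 22, so that its groups overlapped on both sides. Neither change from normal was called (-1.07 ± 0.85 and 0.90 ± 0.81, SE; limma adjusted p = 0.32 and 0.41). In late lymphoma 133, early lymphoma 17 and early lymphoma 8 it stood at 12.39, 12.10 and 12.08, where 1430523_s_at had only 6.66, 6.96 and 6.70. Late lymphoma 137 and early lymphoma 24 were high on both (12.55 and 14.88, 12.55 and 14.26). Over the 60 arrays the r between these 2 probe sets was 0.25.

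**Figure D4:**
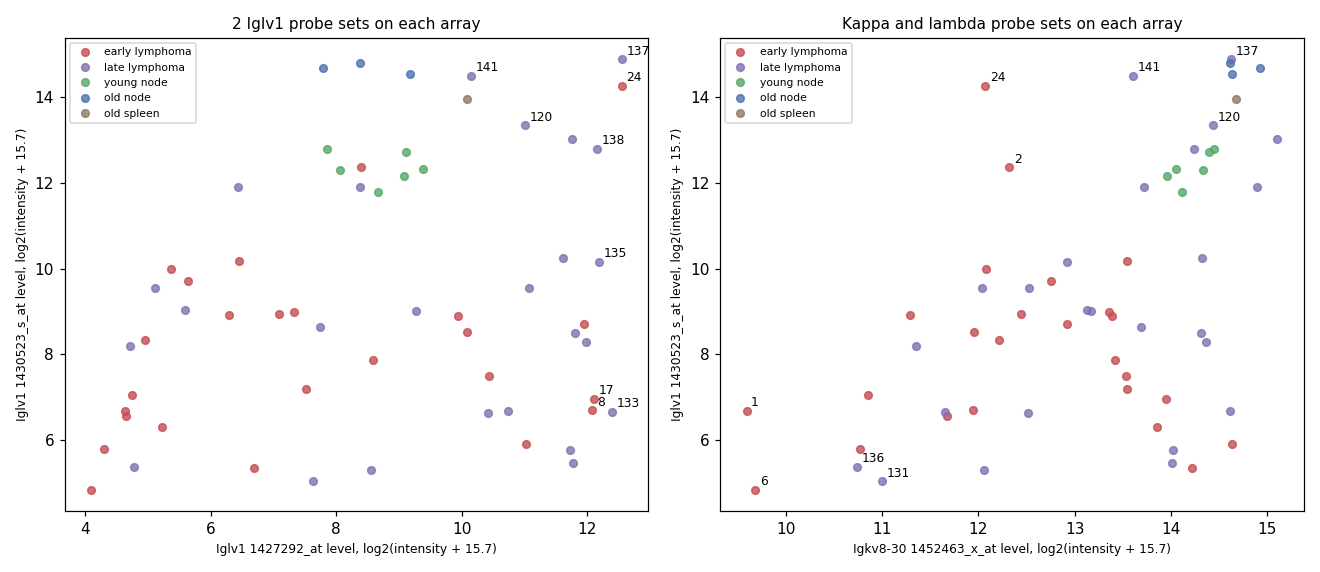
Left, levels of Iglv1 1427292_at (x axis) and Iglv1 1430523_s_at (y axis) on each array; right, Igkv8-30 1452463_x_at (x axis) and Iglv1 1430523_s_at (y axis), all log2(intensity + 15.7). Late lymphoma 133 and early lymphomas 8 and 17 lie at the lower right of the left plot, and early lymphoma 24 (12.07 on Igkv8-30, 14.26 on Iglv1) at the upper left of the right plot.

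The heavy chain V gene Ighv14-2 was below the normal range in all lymphomas but 1. Its lowest, median and highest levels were 12.23, 12.81 and 13.01 in normal tissue, 6.59, 10.09 and 12.60 in early lymphomas and 4.81, 8.48 and 12.20 in late lymphomas. Early lymphoma 11, at 12.60, was the only lymphoma of 50 in the normal range. The changes from normal were -2.57 ± 0.39 and -3.99 ± 0.55 (SE; limma adjusted p = 4.6e-07 and 1.7e-07). The lowest levels were those of late lymphomas 114 (4.81), 138 (5.63) and 136 (6.12), the 3 that were lowest on the pair of Ighm probe sets.

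Most members were lower in late lymphomas as well. Against normal tissue 29 of 38 were lower and 0 were higher by limma, whereas 38.5% of all probe sets were called, 24.5% lower and 14% higher. The median change was -2.59, beside -0.06 over all probe sets. Ighg3 1426198_at, with a change of -0.91 ± 0.38 (SE; limma adjusted p = 0.052), was not called in late lymphomas, and in early ones it was (-1.35 ± 0.25, SE; limma adjusted p = 1.9e-05); the difference between late and early lymphomas did not pass (0.44 ± 0.18, SE; limma adjusted p = 0.11). Scaling matters for this background: with quantile normalization the share of calls that were higher rose from 36.5% to 54.5% in early and from 36.4% to 54.5% in late lymphomas, and with centring to 67.6% and 68.3%. The median of all probe sets then moved to 0.10 and 0.24 in early and to 0.09 and 0.22 in late lymphomas.

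Marker genes of other cells were also measured, and against normal tissue their counts differed between lists. Of 11 T cell genes, 10 were lower in early and 11 in late lymphomas than in normal tissue, with a list level of 10.51 to 11.46 in normal tissue, 6.57 to 8.83 in early and 7.02 to 11.01 in late lymphomas. Of 13 plasma cell genes, 10 were lower and 1 was higher in early lymphomas, and 1 was lower and 1 higher in late ones, where 24.5% of all probe sets were lower. Among them, Jchain changed by -4.45 and -2.30 and Xbp1, a transcription factor needed for secretion, by -1.52 and -0.57, the last not called (limma adjusted p = 0.27). Of 9 macrophage genes 8 were lower in early and 5 in late lymphomas, and 1 was higher in late ones. Of 9 plasmacytoid dendritic genes 7 were lower and 1 higher in early and 3 were lower and 1 higher in late lymphomas. The part of these cells in the immunoglobulin changes was not tested. The B lineage list itself, of 12 genes, had 4 higher and 4 lower in early lymphomas and 6 lower and 0 higher in late ones.

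The genes of heavy and light chain rearrangement and switching showed no common loss. Of 9 recombination and pre-B receptor genes, 3 were higher and 2 lower in early lymphomas than in normal tissue, and 3 were lower and 0 higher in late ones. Rag1, which cuts DNA for V gene joining, had a mean of 5.09 ± 0.94 (SD, n = 10) in normal tissue, 8.18 ± 2.67 (n = 25) in early and 6.01 ± 2.07 (n = 25) in late lymphomas. It was higher in early lymphomas than in normal tissue (3.08, limma adjusted p = 0.0014) and lower in late than in early ones (-2.16, limma adjusted p = 0.02). Vpreb3, expressed at the pre-B stage, is not among these 9 and was counted in the B lineage list. It changed by 2.67 and -2.02 in the same comparisons as Rag1 (limma adjusted p = 0.0043 in the second). Of 6 class switch and mutation genes, 4 were higher and 1 lower in both tumour groups, with Ung, an enzyme of class switching, raised by 2.04 and 1.64. Of 14 transcription factor genes of the immunoglobulin loci, 2 were higher and 5 lower in early lymphomas and 0 were higher and 3 lower in late ones.

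Between late and early lymphomas, immunoglobulin probe sets were called about as often as other probe sets, though their median change was larger. Of the 38 probe sets 6 passed limma's threshold, 4 higher and 2 lower in late tumours, whereas 12.7% of all probe sets did (6% higher and 6.66% lower). The median change over the 38 was 0.73, beside 0.03 over all probe sets, and 18 of the 38 had an unadjusted limma p below 0.05. Higher were Iglv1 1447918_x_at (1.62 ± 0.47, SE), Ighm 1427756_x_at (1.78 ± 0.62), Ighm 1427869_at (0.64 ± 0.22) and Ighg3 1447998_at (0.77 ± 0.25), with limma adjusted p of 0.017, 0.049, 0.049 and 0.034. Lower were Ighv14-2 (-1.42 ± 0.43, limma adjusted p = 0.021) and Igkv19-93 1427855_at (-0.95 ± 0.27, limma adjusted p = 0.017). The second probe set of Igkv19-93 had a value of 0.39 ± 0.29, not called. Without late lymphomas 120, 125, 129, 137 and 138 only Igkv19-93 1427855_at passed, and with the RNA quality ratios as covariates also only that 1. In these 2 settings the median change over the 38 was 0.19 and 0.39. Without late lymphomas 114, 136 and 138, 9 probe sets passed, 8 of them higher, and Ighv14-2 no longer did (-0.98, limma adjusted p = 0.085).

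The spread was wider among late tumours for most members, and for fewer of them without the 5 tumours rich in plasma cell transcripts. The SD was larger among late than early lymphomas for 35 of 38 members (92.1%), beside 68.3% of all probe sets, and the median SD of the members was 1.80 in late and 1.05 in early lymphomas. Without those 5 lymphomas it was larger for 29 of 38 (76.3%), beside 60.7% of all probe sets, with a median of 1.56 in late lymphomas. The highest lymphoma of all 50 was a late one for 35 of the 38 probe sets, beside 57.3% of all probe sets, and without those 5 for 22 of 38 (57.9%), beside 47.0% of all. Late lymphoma 125 was the highest on 13 probe sets and late lymphomas 129 and 137 on 6 each. In the same comparison 9 of 13 plasma cell genes were higher in late lymphomas and 0 lower, 3 of 9 recombination genes and 6 of 12 B lineage genes were lower and 0 higher, and 4 of 9 plasmacytoid dendritic, 3 of 11 T cell and 1 of 9 macrophage genes were higher and 0 lower. Of 6 class switch genes 3 were lower and 0 higher, and of 14 transcription factor genes 5 were lower and 1 higher.

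Single lymphomas were then set against the 10 normal tissues. A lymphoma had 23 to 32 (median 28) of the 38 probe sets below the lowest normal tissue in the early group and 5 to 33 (median 24) in the late group. The fewest were late lymphoma 137 with 5 and late lymphoma 125 with 7. Over the 20 V probe sets and 50 lymphomas, 70.7% of the 1000 levels were below every normal tissue, and over the 18 constant probe sets 63.2% of 900, against 28.7% over all probe sets. Above every normal tissue were 33 V levels (3.3%) and 13 constant levels (1.44%), against 21% over all probe sets. Of the 33, 22 were on Iglv1 1427292_at.

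Few V levels in single lymphomas were far above normal tissue. A V level 2 log2 units or more above the highest normal tissue was found in 6 of 1000 cases, or 0.6%, near the 0.421% over all probe sets. All 6 were Iglv1 1427292_at, in early lymphomas 17 and 24 and late lymphomas 133, 135, 137 and 138. The rule's result therefore rests on the Iglv1 probe set that disagreed with the other probe sets of its gene. Bright probe sets had no room to meet the rule, since the highest level of any member on any array was 15.31. For Igkv8-30, Igkv6-14, Igkv15-103, Igkv9-120 1460423_x_at, Iglv1 1430523_s_at and Iglv1 1447918_x_at the cut-off lay above that level. For these the rule cannot tell whether a tumour held more than normal tissue. Against the 6 young nodes alone the count was 22.

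Measured against the other tumours instead, some V levels in single lymphomas stood out. This reference, the median of the 50 lymphomas, was chosen after the values were seen. Levels 4 log2 units or more above it were found for V genes in 32 of 1000 cases, or 3.2%, beside 0.0934% over all probe sets. They fell in 16 lymphomas, 4 early and 12 late, and on 10 probe sets, with 8 of the 32 on Igkv9-120 1460423_x_at. The 5 tumours rich in plasma cell transcripts, late lymphomas 137, 125, 120, 138 and 129, held 7, 5, 3, 2 and 1 of them. Most of the 32 lay within the range of normal tissue. Constant genes had 39 levels this far above the median of the lymphomas, in 10 lymphomas, 1 of them early. The difference between early and late tumours in these counts was not tested.

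Late lymphoma 138 had the clearest single V gene. Igkv15-103 stood at 14.57 in it, above all normal tissues (9.00 to 13.38) and 3.00 above the next lymphoma, 137, at 11.57. The median of the 50 lymphomas was 6.65. This tumour was low on the Ighm pair and on Ighv14-2 and had Igha in the normal range. On Iglv1 1430523_s_at it also had 12.80.

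Late lymphoma 124 stood out on Igkv6-14, at 13.73, where the median lymphoma had 7.21 and normal tissue 9.75 to 13.68. Igkv6-15, the neighbouring gene in the table, was also highest in late lymphoma 124, at 7.58. Both probe sets were made from 1 sequence record, so they are not independent readings. The same tumour had the highest Ighg3 1447998_at and 12.26 on Iglv1 1447918_x_at. Early lymphoma 23 had 11.88 on Igkv6-14 and no other case among the members.

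Igkv9-120 marked several tumours. On 1460423_x_at early lymphomas 12 and 13 had 14.10 and 14.20 and late lymphomas 114, 125, 126, 135 and 137 had 13.87 to 14.09, and late lymphoma 116 had 12.91, where the median lymphoma had 8.86. The probe set 1452536_s_at gave 13.73 in late lymphoma 135, 1.97 above the next tumour, and 5.04 in late lymphoma 114, the second lowest of 50. Late lymphoma 135 alone was above normal tissue (9.40 to 12.12). Late lymphomas 121, 123, 125 and 137 were within that range, at 10.23, 9.94, 10.01 and 11.77. Of the tumours that shared a high 1460423_x_at, 125, 135 and 137 were thus not below normal tissue on 1452536_s_at, and the others were. The r between the 2 probe sets was 0.51.

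Other tumours had several raised V genes at once. Late lymphoma 137 had 7 such cases and late lymphoma 125 had 5, including Igkv6-20 at 12.96 and Igkv4-72 at 11.88 in the latter, each above all normal tissues (highest 11.99 and 11.82). Late lymphoma 120 had Igkv4-68 at 10.72, Igkv19-93 1427856_a_at at 9.38 and Iglv1 1430523_s_at at 13.34. The kappa probe sets in this last case came from 1 sequence record although they carry different gene names. All 3 tumours were among the 5 rich in plasma cell transcripts. Of the 12 late lymphomas with a V case, the other 2 of those 5 were 129 and 138, each with fewer than 3 cases.

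High lambda and high kappa signals were found in the same tumours and apart. Early lymphoma 24 combined the highest early Iglv1 1430523_s_at (14.26) with 12.07 on Igkv8-30, below the normal range and below the early median. Late lymphoma 141 had 14.50 and 13.60, and late lymphoma 137 had 14.88 and 14.62. Early lymphoma 6, low in B lineage genes, had the lowest Iglv1 1430523_s_at of all (4.84) and the second lowest Igkv8-30 (9.68).

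**Figure D5:**
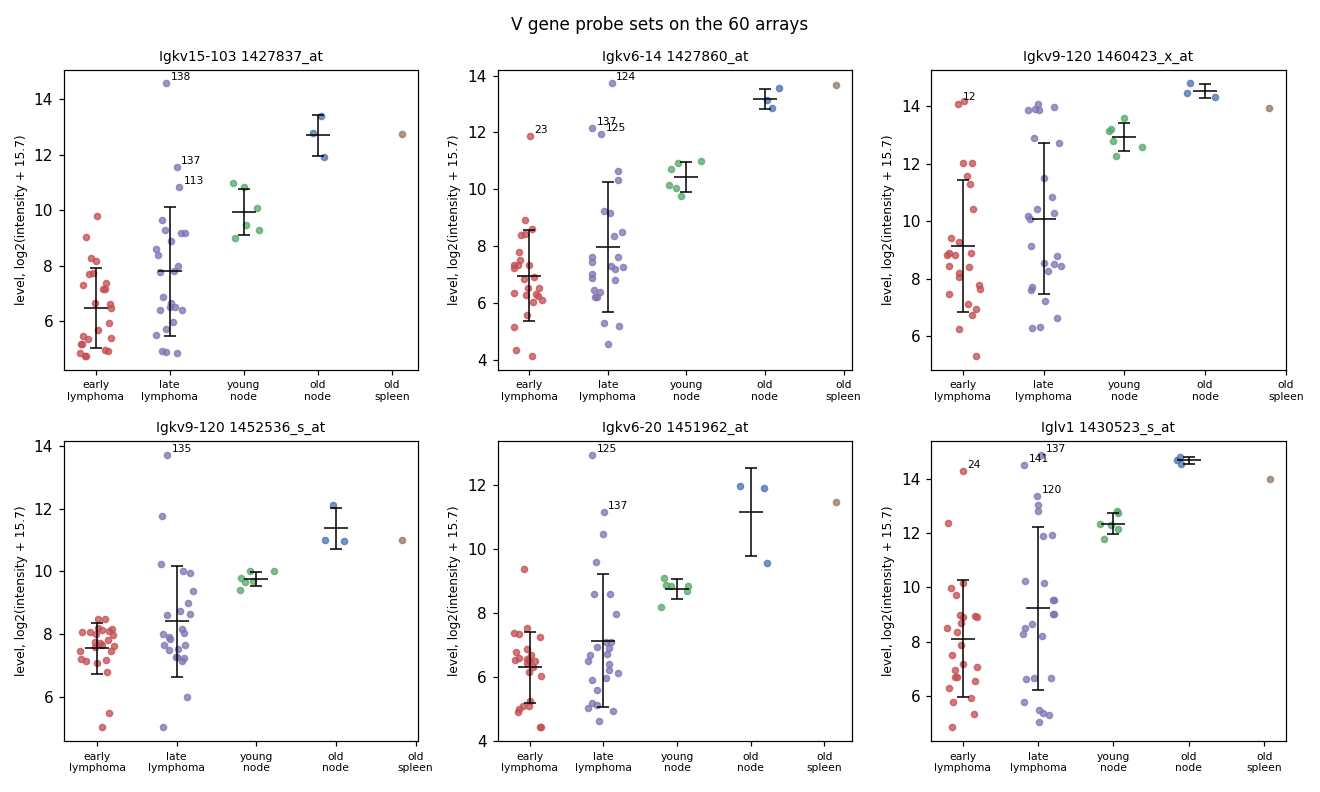
Levels of 5 kappa V probe sets and Iglv1 1430523_s_at on the 60 arrays, log2(intensity + 15.7); points are arrays, bars the mean ± SD of a group, and numbers the labels of single lymphomas. The highest lymphoma is late lymphoma 138 on Igkv15-103 (14.57, the next 11.57), 124 on Igkv6-14 (13.73, the next 12.14), 135 on Igkv9-120 1452536_s_at (13.73, the next 11.77) and 125 on Igkv6-20 (12.96, the next 11.15).

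In normal nodes, immunoglobulin transcripts were higher in old than in young mice. Of the 38 probe sets 17 were higher in the 3 old nodes than in the 6 young ones and 0 were lower by limma, whereas 0.719% of all probe sets were called, 0.435% higher and 0.284% lower. They were all 3 Igha, 1 of 4 Ighg3, 2 of 11 Ighm, 10 of 16 kappa and 1 of 3 Iglv1 probe sets. The median change was 1.75, beside 0.01 over all probe sets.

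Of the gamma chain, 1 probe set of 4 was called, and the others were dim. Ighg3 1427503_at stood at 11.56, 11.66, 11.96, 11.98, 12.16 and 11.97 in young nodes 1 to 6 and at 14.01, 14.49 and 14.02 in old nodes 8, 9 and 10. The groups did not overlap, and the change was 2.30 ± 0.15 (SE; limma adjusted p = 9.1e-05), 4.91-fold. The old spleen had 14.56. The other Ighg3 probe sets did not pass: 1426198_at had a difference of 2.01 ± 0.53, 1426199_x_at of 2.33 ± 0.62 and 1447998_at of 0.12 ± 0.31 (SE; limma adjusted p = 0.13, 0.14 and 0.91). On Iglv1 1430523_s_at young nodes lay between 11.79 and 12.79 and old nodes at 14.80, 14.55 and 14.67, again without overlap (2.33 ± 0.19, SE; limma adjusted p = 0.00026).

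Of the 16 kappa probe sets 10 rose, by 1.06 to 2.76. Igkv6-14 had 9.75, 10.04, 10.15, 10.94, 10.98 and 10.70 in young nodes and 13.14, 13.55 and 12.86 in old nodes, a change of 2.76 ± 0.27 (SE; limma adjusted p = 0.00097). Igkv15-103 changed by 2.76 ± 0.45 (SE; limma adjusted p = 0.021), with 9.00 to 10.96 in young and 11.93 to 13.38 in old nodes. Igkv4-72 changed by 2.27 ± 0.20 (SE; limma adjusted p = 0.00049). None of the 3 overlapped between young and old nodes. The 6 kappa probe sets that did not pass had differences of 0.47 (Igkv5-39), 0.51 (Igkv8-30), 0.60 (Igkv1-135), 0.67 (Igkv1-117), 1.54 (Igkv9-120 1427750_at) and 2.71 (Igkv6-15), with limma adjusted p from 0.063 to 0.60.

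The alpha chain changed less, by 0.67 to 1.14 on the Igha probe sets. Young nodes already stood at 13.55 to 14.55 on these, and the highest level of any member on any array was 15.31. A larger rise thus had little room. The 11 Ighm probe sets changed by 0.37 to 3.95 (median 2.22), and 2 were called. None of the block of 4 was called. On 1427756_x_at of the block, young nodes ranged from 10.79 to 14.09 and old nodes from 14.24 to 14.87. Igha 1421653_a_at had 13.97 to 14.24 in young and 14.56 to 14.97 in old nodes, a rise of 0.67 ± 0.12 (SE; limma adjusted p = 0.028). Ighm 1427351_s_at rose by 0.65 ± 0.10 and Ighm 1452535_at by 2.74 ± 0.32 (SE; limma adjusted p = 0.02 and 0.0029), and the former lost its call with quantile normalization (0.37, limma adjusted p = 0.13). Ighm 1425385_a_at had the widest difference, 3.95 ± 1.21 (SE), but was not called (limma adjusted p = 0.19), with young node 5 far below the others. Ighv14-2 had -0.35 ± 0.15, not called (limma adjusted p = 0.35).

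Of 13 plasma cell genes 11 were higher in the old nodes and 0 lower, with a list level of 10.35 to 10.65 in young and 11.43 to 12.02 in old nodes. Jchain rose by 0.88 and Prdm1, the regulator of plasma cell identity, by 1.24 (limma adjusted p = 0.0036 and 0.0014). Of 14 transcription factor genes 1 was higher, of 9 recombination genes 1 was lower, and none of the B lineage, T cell, class switch, plasmacytoid dendritic or macrophage genes passed the threshold. The Gapdh 3' to 5' ratio did not overlap between the groups either (-0.51 to -0.38 in young, -0.33 to -0.30 in old nodes). With both RNA quality ratios as covariates 0 of the 38 and 0 of all 45037 probe sets passed limma's threshold, although 21 of the 38 kept an unadjusted p below 0.05, against 32 without the covariates. Leaving out old node 8, 9 or 10 left 8, 10 or 9 of the 17 called, and all of these were among the 17.

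Ighmbp2 was caught by its letters alone. Its 4 probe sets had levels between 4.28 and 8.40 in all groups. Of these, 1441825_x_at was lower in early lymphomas than in normal tissue (-0.58 ± 0.15, SE; limma adjusted p = 0.0012) and higher in late than early ones (0.49 ± 0.15, limma adjusted p = 0.025), and 1421016_at was higher in late lymphomas than in normal tissue (0.59 ± 0.24, limma adjusted p = 0.046). No other of the 16 tests on this gene passed the threshold.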

How the data were processed

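The authors deposited linear intensities of 60 arrays, and the submitters' processing notes name MAS5. A mean trimmed by 2% at either end came to 500.0 on every array, so all had been scaled alike; such scaling can shift all probe sets where many change. Detection calls were not used here. Intensities were turned into log2(intensity + 15.7), the pseudocount being the median of the table divided by 10. The 64 control probe sets were left out, and no filter was applied; a filter (above the array median on at least 10 arrays) that 27 of the 38 immunoglobulin probe sets pass was an alternative. Each comparison used limma 3.58.1 in R 4.3.3 (lmFit, eBayes with a trend) on its own groups, taken from the labels. The number of arrays limits the precision.

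Genes were named from the platform annotation, only for probe sets with 1 symbol, and all 38 were found in the RefSeq gene table. No sequences are shown. Named were every constant region probe set, the V probe sets raised 2 log2 units above normal tissue in most lymphomas, those with the 5 largest called changes each way in a comparison, the leading V probe set of a lymphoma, and up to 4 genes of each other list; V probe sets that stand above the other lymphomas were chosen after their values were seen. The members and gene lists were chosen with earlier results of these data known. Of 91 list entries 83 were measured. The scripts were tested on simulated data.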

Additional observations from a re-analysis of the deposited data

Results flagged for a closer look

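Among the 6 young nodes, the highest and lowest level of each of the 38 probe sets was compared with the nearest other node by Dixon's ratio, with a critical value of 0.625. In 2 of 38 probe sets a node stood apart, where chance alone marks about 1 in 20 such groups. Ighg3 1426198_at was at 6.02 in young node 6, and the nearest node was at 4.67 (ratio 0.740). Igkv1-117 1427748_at was at 5.24 in young node 3, and the nearest node was at 4.32 (ratio 0.930). Both probe sets are dim and did not pass the filter on low levels.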

How the results depend on the processing

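The alternatives covered the pseudocount, the filter, quantile normalization, centring, RNA quality ratios, robust moderation, left-out lymphomas or tissues and the replicate block. The 30 lower probe sets in early and 29 in late lymphomas against normal tissue kept their counts within 1.5 times under each alternative run. Early lymphomas and normal tissues share label numbers, but in 0 of 9 pairs did their deviations correlate above 0.1 (r from -0.051 to 0.063). Those of normal tissues were taken from the mean of young nodes, old nodes and spleen together, so the check cannot exclude a pairing. With the replicate block 29 were lower and 0 higher in early lymphomas, and calls over all probe sets went from 22271 to 18643. In late lymphomas against normal tissue, 1 was higher with quantile normalization and 1 with centring. For late against early lymphomas the 4 higher became 2 with a pseudocount 4 times larger, 1 with centring, 0 with RNA ratios, 0 without the 5 lymphomas high in plasma cell genes and 8 without late lymphomas 114, 136 and 138; the 2 lower became 1 in each of the last 3 settings. The 17 higher in old nodes became 0 with RNA ratios and 8 to 10 when an old node was left out, and 19 without young node 5. Of V levels above normal tissue, 16 were raised by 1 unit, 0 by 3 units, 11 with centring and 22 against young nodes only; above the median of the 50 lymphomas, 70, 32 and 16 were raised by 3, 4 and 5 units, a reference added after seeing the data, as were the settings without late lymphomas 114, 136 and 138 and without young node 5. The 35 members with a late lymphoma as the highest became 22 without the 5 plasma-rich lymphomas, a setting added for this count after seeing the data. Constant levels above all normal tissues rose from 13 to 25 with centring.

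Of 1666 comparisons of 152 single results with a setting, 1528 kept direction and call, 80 lost and 38 gained the call and 20 changed sign, none of them called before or after; the cause was not tested. For late against early lymphomas these were Ighm 1452535_at (-0.089 with RNA ratios, -0.26 without the plasma-rich lymphomas), Igkv14-111 (-0.14) and Igkv4-72 (-0.21) without the plasma-rich lymphomas, and Igkv9-120 1427750_at (0.032 with the larger pseudocount, 0.13 without the lymphomas low in B lineage genes, 0.098 without 114, 136 and 138). For early lymphomas against normal tissue they were Ighm 1427329_a_at (0.20 centred, 0.15 against young nodes), Ighm 1427351_s_at (0.044 centred), Ighm 1451949_at (0.32 against young nodes), Igkv1-135 (0.038 centred) and Igkv9-120 1427750_at (0.31 against young nodes). For late lymphomas they were Igkv1-117 (0.12 centred, 0.010 without the spleen) and Igkv1-135 (0.12 centred). For old against young nodes they were Ighg3 1447998_at (-0.10 to 0.34 when an old node was left out), Ighm 1426196_at (-0.071 to 0.61 likewise) and Iglv1 1427292_at (0.16 with the spleen, -0.61 to 0.080 when an old node was left out).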
